A study of Mus musculus with 8 samples.

Results

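The loci examined here are those of 9 genes of antigen presentation and its checkpoint, B2m, Tap1, Tap2, Psmb8, Psmb9, Nlrc5, Irf1, Cd274 and Ciita. The assay was ATAC-seq, where a transposase cuts and tags open chromatin, so that counts measure accessibility. A region of the authors' count table was taken when it lay inside 1 of these genes, or within 50 kb with that gene's end as the nearest end of a protein-coding gene (GRCm38). That gave 42 of 148664 regions. They comprised 4 at B2m, 2 at Tap1, 4 at Tap2, 1 at Psmb8, 1 at Psmb9, 13 at Nlrc5, 9 at Irf1, 3 at Cd274 and 6 at Ciita, with 1 region shared by Tap1 and Psmb9. Of the 42, 23 touched a gene body, and exons and introns were not annotated.

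The samples were 8 libraries of 4 mouse melanoma cell lines, 2 libraries a line. Lines 112 and 113 carry the label STAT3 knockout (Stat3∆ in the growth protocol), and lines 119 and 73 the label Wild type (Stat3fl, the floxed allele). Per the labels, all 4 were pools of cells from lymph nodes of mice whose cutaneous melanoma began at about 25 to 30 weeks of age, although the labels also use the word clone. No treatment, no interferon and no Cre driver is named in the labels. The titles also hold p18 (line 112), p44 (line 113), p14 (line 119) and p68 (line 73), whose meaning is unexplained. Since each genotype is a pair of lines, the genotype cannot be told apart from other differences between these pairs.

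Class I molecules show peptides from inside the cell to CD8 T cells. The immunoproteasome subunits Psmb8 and Psmb9 cut proteins into such peptides, Tap1 and Tap2 form the transporter that carries them into the endoplasmic reticulum, and B2m is the light chain that every class I molecule needs. Nlrc5 is the transactivator of class I genes, Irf1 is a transcription factor that interferon induces, and Ciita is the transactivator of class II genes. Cd274 encodes PD-L1, the ligand that restrains T cells through PD-1. In melanoma cells, loss of this machinery and display of PD-L1 are known routes of escape from T cells.

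The libraries held 2697546 to 7464336 counts. CPM below are counts per 1000000 of the library's TMM size, and 3 counts, the upper limit for a count of 0, were worth 0.389 to 0.949 CPM (counting error only). The libraries differed in signal at transcription start sites. The 11616 regions there held 21.3% and 21.6% of counts in line 119 and 25.1% and 26.4% in 112, against 30.4% to 30.6% in lines 113 and 73. Library 2 of line 112 was the shallowest and had a peak call in 12.6% of all regions, against 24.5% in library 1 of that line and 61.1% in library 1 of line 119. At the end of Stat3 itself the region with most counts had 26.6 to 39.2 CPM in the knockout libraries and 18.3 to 38.5 CPM in the wild-type libraries, which overlapped, and this does not check the deletion. All 7 melanocyte markers had a region at a start site or gene end, with summed levels of 119.9 to 250.8 CPM in the knockout libraries and 70.8 to 121.1 CPM in the wild-type libraries. Their log2 fold changes, knockout over wild type, ran from -0.04 to 4.25 with a median of 2.47, and 0 passed with lines as units. In all 4 knockout-to-wild-type pairs of lines 3 of the 7 were called higher in the knockout, where 2.79% of all start-site regions were. For leukocytes, 5 of 7 markers had a region and Ptprc and Itgam had none. Summed levels were 37.3 to 48.0 CPM in the knockout and 27.8 to 54.8 CPM in the wild-type libraries, and some of these regions also lie near genes of other cells. The 3 fibroblast markers summed to 31.6 to 45.9 and 30.1 to 46.9 CPM. These sums hide opposed markers, with log2 fold changes from -1.32 to 3.29, of which 0 passed with lines as units. In all 4 pairs 1 of the 3 was called higher in the knockout. Of 3 endothelial markers Kdr alone had a region, at 2.13 to 5.69 and 5.50 to 7.52 CPM. The part of other cell types in the results below was not tested.

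The RefSeq table of promoters (GRCm38.p6, 250 bases before to 50 after a start site) held 6 of the 9 members. Of the 5 promoters below, 4 lay wholly inside a region of the count table, and the Psmb8 promoter shared 218 of its 300 bases with the Psmb8 region and 42 with the region next to it. They are shown 5′ to 3′ on the plus strand, which is the strand of these genes, because accessible regions of the table cover all or most of each and interferon elements are the textbook route of class I and PD-L1 control. Capitals mark the matches of the motifs searched: the interferon-stimulated response element core GAAANNGAA, the gamma-activated site TTCNNNGAA to which STAT dimers bind, the CCAAT box and the NF-kB site GGANTTTCC.
B2m promoter, chr2:122147437-122147736, plus strand: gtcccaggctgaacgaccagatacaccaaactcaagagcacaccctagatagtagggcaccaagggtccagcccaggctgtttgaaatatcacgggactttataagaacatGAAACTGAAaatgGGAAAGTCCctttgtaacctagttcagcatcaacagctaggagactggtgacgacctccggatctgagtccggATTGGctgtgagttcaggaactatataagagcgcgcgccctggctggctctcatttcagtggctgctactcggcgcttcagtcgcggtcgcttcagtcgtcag
Tap1 promoter, chr17:34187306-34187605, plus strand: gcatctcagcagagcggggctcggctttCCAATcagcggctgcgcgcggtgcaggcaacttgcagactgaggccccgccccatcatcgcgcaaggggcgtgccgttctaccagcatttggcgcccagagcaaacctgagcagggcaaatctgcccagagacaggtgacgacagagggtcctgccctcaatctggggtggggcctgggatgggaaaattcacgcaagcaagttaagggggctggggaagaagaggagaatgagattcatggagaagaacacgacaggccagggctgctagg
Psmb8 promoter, chr17:34197945-34198244, plus strand: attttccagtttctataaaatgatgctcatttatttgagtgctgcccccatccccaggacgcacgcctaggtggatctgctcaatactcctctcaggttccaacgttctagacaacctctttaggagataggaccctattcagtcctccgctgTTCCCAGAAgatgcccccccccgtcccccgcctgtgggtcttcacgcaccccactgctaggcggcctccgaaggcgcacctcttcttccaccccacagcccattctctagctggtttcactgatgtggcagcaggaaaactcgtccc
Irf1 promoter, chr11:53769764-53770063, plus strand: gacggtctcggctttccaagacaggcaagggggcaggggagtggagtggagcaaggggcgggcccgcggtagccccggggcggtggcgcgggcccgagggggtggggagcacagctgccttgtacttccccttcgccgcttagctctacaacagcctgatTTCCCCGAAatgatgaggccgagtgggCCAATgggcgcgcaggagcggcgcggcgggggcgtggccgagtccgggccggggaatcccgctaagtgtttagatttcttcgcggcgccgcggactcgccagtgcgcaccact
Cd274 promoter, chr19:29367188-29367487, plus strand: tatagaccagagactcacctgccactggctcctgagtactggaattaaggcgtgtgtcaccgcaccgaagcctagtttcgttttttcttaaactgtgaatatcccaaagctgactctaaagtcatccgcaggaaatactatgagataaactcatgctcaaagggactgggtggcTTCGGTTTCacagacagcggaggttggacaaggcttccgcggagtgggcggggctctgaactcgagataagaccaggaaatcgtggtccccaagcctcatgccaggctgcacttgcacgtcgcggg
Positions are counted from the start site as +1, without a 0. B2m holds the interferon core at -139, an NF-kB match at -126 on the other strand and a CCAAT box at -53 on the other strand. The same core stands at -76 of Cd274, on the other strand. Irf1 has a gamma-activated match at -90 and a CCAAT box at -63, and Psmb8 has a gamma-activated match at -97. The single match in Tap1 is a CCAAT box at -222. Psmb9 starts 226 bp away on the opposite strand, so its promoter overlaps that of Tap1. None of these matches overlapped each other. Of 32851 promoters in the table, searched on both strands, 8.56% held the interferon core, 8.30% the gamma-activated site, 37.4% the CCAAT box and 1.25% the NF-kB site. The E-box CACGTG (7.15% of promoters), the C/EBP-like TTGCNNAA (10.8%) and the CRE-like TGACGT (7.51%) had no match in the member promoters searched.

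Accessibility was read first at the start region of each member, which overlaps its start site or, for Tap2 and Nlrc5, lies at a gene end because the promoter table does not hold them. Levels per length, as the mean of the 4 lines ± SD (n = 4), fell into 2 tiers. B2m had 45.0 ± 12.1 CPM per kb, the region of Tap1 and Psmb9 had 33.0 ± 10.98 and Irf1 had 31.7 ± 10.7. Nlrc5 had 13.8 ± 4.57 CPM per kb, Cd274 had 11.2 ± 3.28, Tap2 had 10.7 ± 2.28 and Psmb8 had 6.88 ± 2.97. Within each tier, neighbours in this order differed by no more than the larger of their SDs, except that Psmb8 lay below Tap2 by more. Ciita had no region within 1 kb of an end of its gene table entry. The promoter table does not hold it, so its start sites were not examined.

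**Figure D1:**
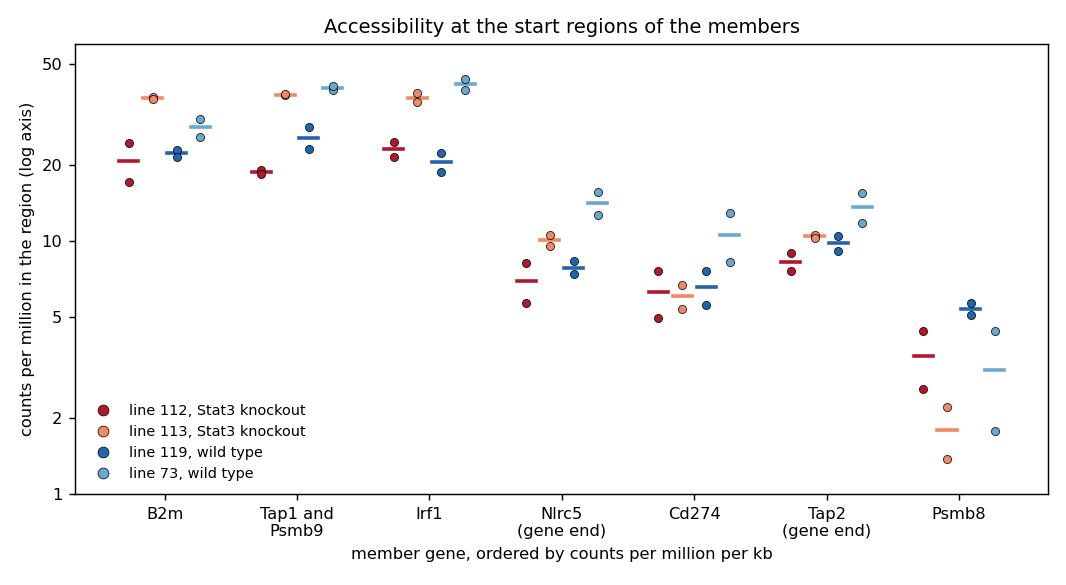
CPM (log axis) in the start or gene-end region of 8 members, of which Tap1 and Psmb9 share a region. Points are libraries and bars are line means. Lines 113 and 73 stand above lines 112 and 119 at Tap1 and Psmb9 and at Irf1, and knockout and wild-type libraries overlap at each of the 7 regions.

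Among the class I members, the B2m region (chr2:122147339-122147936) had 24.3 and 17.1 CPM for line 112, 36.9 and 36.3 for line 113, 22.8 and 21.5 for line 119, and 30.4 and 25.9 for line 73. Line 113 was highest, and knockout and wild-type libraries overlapped. The knockout lines had 28.7 ± 11.2 CPM and the wild-type lines 25.2 ± 4.22 (mean ± SD, n = 2 lines), a log2 fold change of 0.16 with SE 0.64 and an adjusted p of 0.952 (edgeR, lines as units). The region of Tap1 and Psmb9 (chr17:34187128-34188055) lies between their opposed starts, and had 19.1 and 18.3 CPM for line 112, 37.6 and 38.0 for line 113, 23.1 and 28.1 for line 119, and 39.5 and 41.0 for line 73. Line 112 was lowest in both libraries and each genotype held a higher and a lower line. Its log2 fold change for genotype was -0.24 with SE 0.64 (adjusted p = 0.917).

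The Psmb8 start region (chr17:34198027-34198527) was much weaker, with 2.60 and 4.43 CPM for line 112, 1.38 and 2.21 for line 113, 5.70 and 5.09 for line 119, and 1.77 and 4.402 for line 73. A peak was called there in 2 of 8 libraries. It had the widest range of line means among the start regions, with line 119 highest and line 113 lowest. Line 113 was below line 119, with a log2 fold change of -1.59 and SE 0.42 (adjusted p = 0.00115, edgeR). Over the 8 libraries, the genes whose start or gene-end region followed this pattern most closely, of 10494 compared, were Zfp354b (Pearson r 0.886), St8sia4 (0.885) and Lpar2 (0.884), given as a description because libraries of a line are not independent. Tap2 at its gene end (chr17:34204241-34205230) had 8.97 and 7.59 CPM for line 112, 10.6 and 10.3 for line 113, 10.5 and 9.16 for line 119, and 15.5 and 11.8 for line 73. It was the single start region that did not pass the test of any difference among the 4 lines (adjusted p = 0.109, edgeR).

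Of the regulators, Irf1 (chr11:53769659-53770619) had 24.6 and 21.5 CPM for line 112, 38.3 and 35.3 for line 113, 18.8 and 22.2 for line 119, and 43.6 and 39.6 for line 73. Lines 113 and 73 stood clear of the other two, 1 line of each genotype. The genotype means were 29.9 ± 9.74 and 31.1 ± 14.9 CPM (n = 2 lines), a log2 fold change of -0.07 with SE 0.64 (adjusted p = 0.979), whose sign turned to 0.19 with a regional offset. The Nlrc5 gene end (chr8:94433921-94434626) had 5.67 and 8.22 CPM for line 112, 10.6 and 9.57 for line 113, 7.39 and 8.31 for line 119, and 12.7 and 15.7 for line 73, with line 73 above every other library. Its level in line 73 exceeded that of lines 112 (log2 fold change of 112 over 73 -1.05, SE 0.30, adjusted p = 0.00279) and 119 (-0.85 for 119 over 73, SE 0.27, adjusted p = 0.005), while line 113 over 73, at -0.49 with SE 0.27, did not pass (adjusted p = 0.132).

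At Cd274, the checkpoint ligand, the start region (chr19:29367081-29367737) had 4.96 and 7.59 CPM for line 112, 6.69 and 5.40 for line 113, 5.57 and 7.63 for line 119, and 12.9 and 8.25 for line 73. This region lies inside the Cd274 gene table entry, 4974 bp from its nearer end, and an end of Plgrkt is closer. Both libraries of line 73 lay above the other 6. Line 73 passed the test against each of the other lines, with log2 fold changes of -0.79 for 112 over 73 (SE 0.33, adjusted p = 0.0364), -0.81 for 113 over 73 (SE 0.32, adjusted p = 0.0267) and -0.71 for 119 over 73 (SE 0.29, adjusted p = 0.033). The genotype difference was -0.53 with SE 0.83 (adjusted p = 0.826). A stronger region at an end of the Cd274 gene table entry (chr19:29361601-29362206) carried a peak in all 8 libraries. Its line means were 11.4, 15.8, 11.8 and 19.6 CPM in lines 112, 113, 119 and 73, and its midpoint lay at -5535 bp from the start site.

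Line differences at the start regions are read beside those of start sites in general. Over all start-site regions the median log2 fold change was 0.77 for line 113 over 119 and -0.71 for line 119 over 73, and over the 7 member start regions it was 0.37 and -0.66. Setting the median of start-site regions to 0, a scaling chosen after the data were seen, left 3 of the 7 start regions with a difference among lines in place of 6, where 64.1% of all start-site regions and 84.6% of all regions differed. These were Psmb8 (adjusted p = 1.88e-05), Tap1 and Psmb9 (0.00477) and Cd274 (0.0327). Under it line 112 was lower at Tap1 and Psmb9 than line 119 (log2 fold change -0.61, SE 0.16, adjusted p = 0.00195) and line 73 (-0.54, SE 0.17, adjusted p = 0.00538), while line 112 over 113, at -0.39 with SE 0.17, did not pass (adjusted p = 0.0636). Psmb8 was then lower in line 113 than in line 119 (-2.37, SE 0.44, adjusted p = 6.4e-06). Cd274 was lower in line 113 than in line 73 (-0.87, SE 0.32, adjusted p = 0.0182), while line 119 over 73 was 0.02 with SE 0.29 (adjusted p = 0.961).

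With lines as units, 0 of the 42 member regions passed the genotype test, as did 0.0% of all 140329 regions tested (edgeR, adjusted over all of them). The smallest adjusted p of a member was 0.174. Before adjustment, with p under 0.05, 2 member regions had more and 1 had less accessibility in the knockout, where 8.27% and 8.64% of all regions lay. By library, 2 member regions had every knockout value above every wild-type value and 5 had every knockout value below, where the shares of all regions were 14.5% and 12.3%. The median log2 fold change was -0.24 over the members and -0.09 over all regions. The smallest exact p that 2 lines against 2 allow for a single value is 0.333. DESeq2 called 1 of 33 member regions with an adjusted p, where 7.43% of all regions were called, and edgeR with libraries as units called 4 of 34, against 26.0%.

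Among the lines, 34 of the 39 member regions with enough counts differed (87.2%), near the 86.3% of all regions, and 6 of the 7 start regions did, where 93.3% of all start-site regions did. The noise in these tests is the spread between libraries of a line, which may be technical, since nothing says that they came from separate cultures. With TMM, line 73 had the highest mean in 24 of the 42 regions, line 112 in 8, line 119 in 6 and line 113 in 4.

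The pairs with line 73 share its 2 libraries and are given side by side. Line 113 was below line 73 in 19 member regions and above in 2, where 27.4% and 27.1% of all regions were. Line 112 was below line 73 in 17 and above in 3, against 27.0% and 25.4%. Line 119 was below line 73 in 20 and above in 2, against 30.7% and 29.6%. Of the 32 member regions tested that are no start region, 18 were lower and 2 higher in line 113 than in line 73, where 28.4% and 27.9% of all regions away from start sites were. For line 112 the numbers were 12 lower and 3 higher, against 24.8% and 26.8%, and for line 119 they were 16 lower and 2 higher, against 27.2% and 31.5%. Median log2 fold changes over the members against line 73 were -0.67, -0.60 and -0.71 for lines 113, 112 and 119, and over all regions -0.01, 0.04 and -0.09. Leaving out a library leaves its line with a single library, so counts of calls from such fits are not given here. Without library 1 of line 73 fewer member regions were called in each of these pairs, and fewer of all regions were too. The same held for line 113 against 73 without library 2 of line 113. It also held for line 119 against 73 without library 1 or 2 of line 119.

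Without line 73 the members were spread both ways. Line 112 was above line 119 in 10 member regions and below in 4, where 23.4% and 25.3% of all regions were. Line 113 was above line 119 in 10 and below in 7, against 31.0% and 30.1%. Line 112 was above line 113 in 8 and below in 3, against 8.95% and 16.5%. Calls fell without a library here as well, both among the members and among all regions. This held for lines 112 and 113 against 119 without library 1 of line 119, and for line 113 against 119 without library 2 of line 119. It also held for line 112 against 113 without library 2 of line 112, and without library 1 or 2 of line 113.

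The split depends on the scaling in most pairs. With start-site regions set to 0, line 119 was below line 73 in 3 member regions and above in 11, where 12.4% and 43.4% of all regions were. Line 112 was then below line 73 in 6 and above in 3, against 15.03% and 37.8%. Line 113 was below line 73 in 19 and above in 2, the counts that TMM gave, against 28.6% and 26.0%. That scaling gave 1 member region higher and 17 lower in line 113 than in line 119, against 12.1% and 46.2% of all regions. It gave 16 higher and 0 lower in line 112 than in line 113, against 28.5% and 4.47%, and 8 higher and 7 lower in line 112 than in line 119, against 18.8% and 29.1%. A regional offset gave 2 higher and 6 lower in line 112 than in line 113, against 3.94% and 19.0%. Scaling to total counts gave 7 higher and 9 lower in line 113 than in line 119, against 26.0% and 34.1%, and 12 higher and 2 lower in line 112 than in line 113, against 16.7% and 9.18%. Scaling to start sites moved the median of all regions to 0.60 for line 112 over 73, 0.63 for 119 over 73 and -0.70 for 113 over 119, and total counts moved that of 112 over 113 to 0.41. Relative to the median of all regions the members lay at -0.64, -0.66 and -0.62 for lines 112, 113 and 119 over line 73 with TMM, and at -0.64, -0.66 and -0.61 with start-site scaling. In the other 3 pairs this difference was between -0.01 and 0.09 under both. That the 2 scalings give like differences is no check, because each uses 1 factor per library and shifts all regions of a pair nearly alike. The difference is a description of 39 regions, several of 1 locus.

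**Figure D2:**
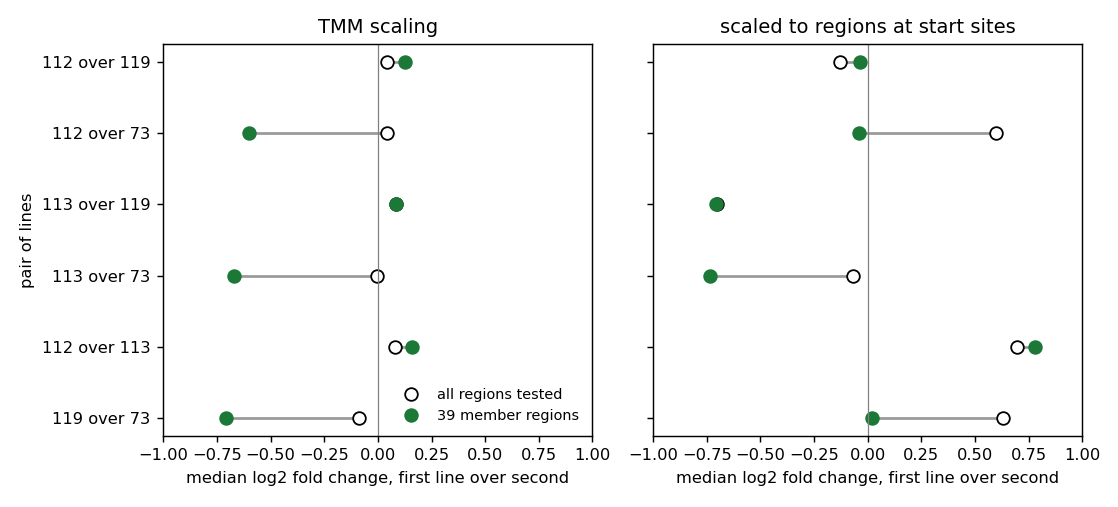
Median log2 fold change (first line over second) of the 39 tested member regions, filled, and of all regions tested, open, in each pair of lines, with TMM scaling at left and with start-site regions set to 0 at right. Both medians move with the scaling. The gap between them is -0.61 to -0.66 in the 3 pairs with line 73 and between -0.01 and 0.09 in the others. A change of scaling shifts all regions of a pair nearly alike, so the gap could hardly change.

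Beyond the start regions, elements separated by genotype are given first and those of a single line after them. The word separated is used of a region for which each of the 4 knockout-to-wild-type pairs passed with the same sign. Of the 39 member regions, 2 were separated and higher in the knockout lines and 1 was lower, where 8.22% and 7.55% of all regions were. None of the 7 start regions was separated, and among all start-site regions 2.79% and 3.25% were. In the heat map these 3 regions show as rows whose colours divide at the line between the genotypes.

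**Figure D3:**
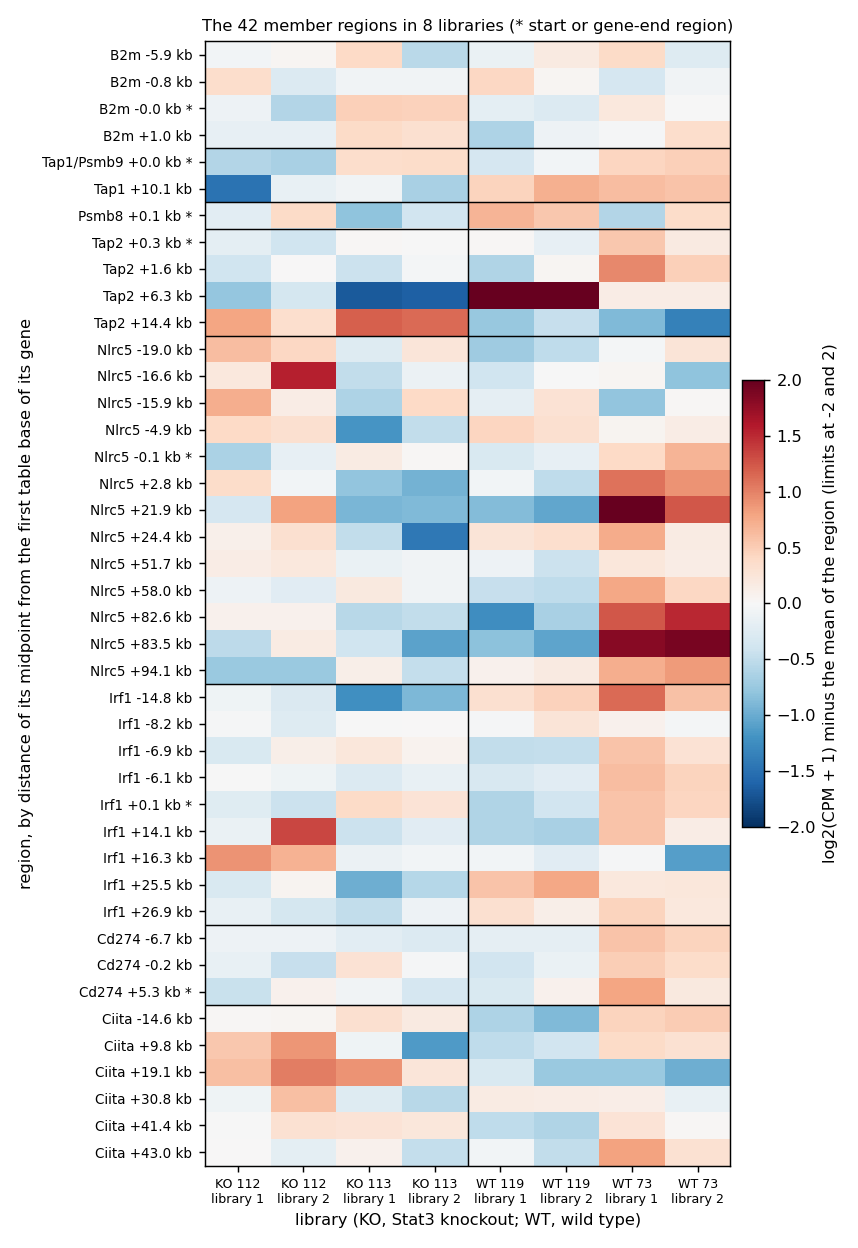
The 42 member regions (rows, by gene and by distance in kb of the region's midpoint from the first table base of the gene) in 8 libraries (columns). Colour is log2(CPM + 1) minus the mean of the region, limited to -2 and 2. With TMM, line 73 has the highest mean in 24 rows, and the separated rows are Tap1 at +10.1 kb, Tap2 at +14.4 kb and Ciita at +19.1 kb.

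Psmb9, Tap1, Psmb8 and Tap2 lie within 34.3 kb of chromosome 17, inside the major histocompatibility complex, and 2 of the separated regions are there. The first, 2209 bp outside Tap2 (chr17:34218530-34219149), had 9.45 and 6.64 CPM for line 112, 12.9 and 12.3 for line 113, 2.59 and 3.39 for line 119, and 2.28 and 1.38 for line 73. Every knockout library was above every wild-type library, with 10.3 ± 3.22 against 2.41 ± 0.823 CPM (n = 2 lines). The log2 fold change was 2.06 with SE 0.87, which did not pass with lines as units (adjusted p = 0.246), and the 4 pairs gave 1.46, 2.13, 2.08 and 2.75. The region stayed separated in 15 of 15 alternatives. The second lies between Tap1 and Psmb8, 178 bp beyond Tap1 and 40 bp short of the Psmb8 start region (chr17:34197403-34197986). It ran the other way, with 1.89 and 6.33 CPM for line 112, 6.69 and 4.17 for line 113, 9.98 and 12.2 for line 119, and 11.4 and 11.01 for line 73, so the genotypes did not overlap although the libraries of line 112 lay far apart. Its log2 fold change was -1.30 with SE 0.83 (adjusted p = 0.448). It was no longer separated without library 1 of line 112, without library 2 of line 113, or with DESeq2.

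An element inside Tap2 (chr17:34210442-34211074) had the widest range of line means of any Tap2 region with a mean of at least 5 CPM. It had 2.60 and 3.80 CPM for line 112, 0.922 and 0.982 for line 113, 24.6 and 25.1 for line 119, and 5.83 and 5.78 for line 73, so line 119 stood 26.1-fold above line 113. Both wild-type lines were above both knockout lines, yet the wild-type lines differed from each other by a log2 fold change of 2.09 (119 over 73, SE 0.27, adjusted p = 4.4e-09), and line 112 over 73, at -0.89 with SE 0.40, did not pass (adjusted p = 0.0548). The genotype difference was -2.98 with SE 1.00 (adjusted p = 0.174 with lines as units, the smallest of the members). It passed when libraries were taken as units (adjusted p = 0.0119) and with DESeq2 (0.0303). The level of weak regions in the surrounding 10 Mb, on the log2 scale relative to all libraries, was 0.24, -0.14, -0.01 and -0.08 in lines 112, 113, 119 and 73. With the offset for these levels the region was separated and lower in the knockout lines.

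**Figure D4:**
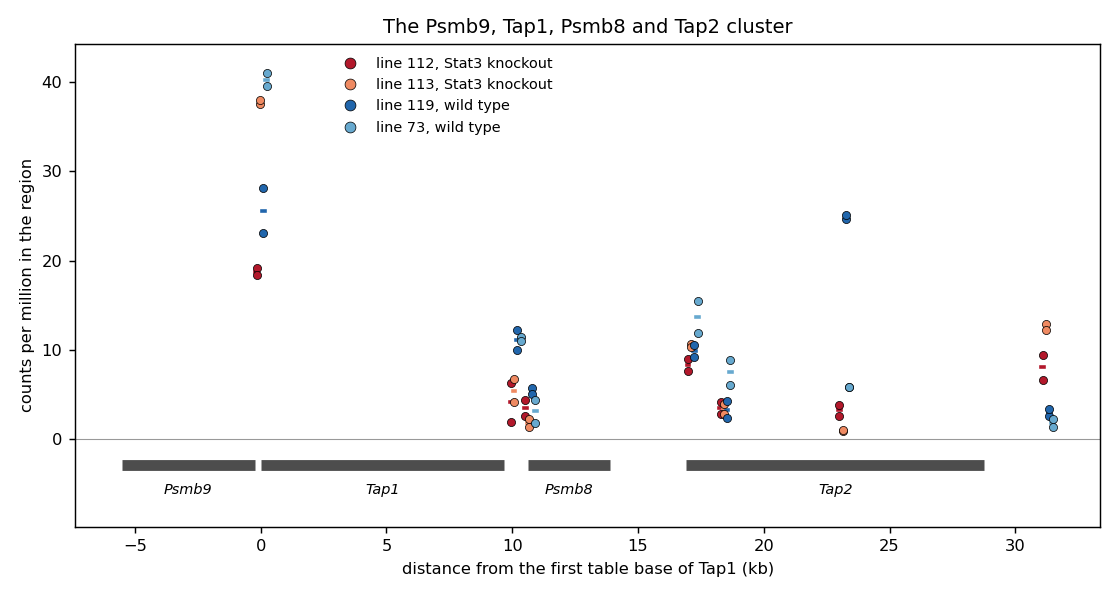
CPM in the regions of the chromosome 17 cluster against distance from the first table base of Tap1, with gene bodies as bars. Points are libraries, set slightly apart by line, and short dashes are line means. The shared start of Tap1 and Psmb9 is the highest, the element within Tap2 is high in line 119 alone, and the element beyond Tap2 is high in lines 112 and 113.

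Nlrc5 had the most regions, 13, and with TMM all 8 that touch its gene body had their highest mean in line 73. This lead was not clear in each of them. At chr8:94485790-94486297 lines 73 and 112 had 3.43 and 3.39 CPM, and no difference among the 4 lines passed (adjusted p = 0.440, edgeR). At chr8:94458468-94459019 line 119 over 73, at -0.25 with SE 0.41, did not pass (adjusted p = 0.613, edgeR). Most accessible was an element inside the gene (chr8:94491879-94492870), with 16.3 and 14.9 CPM for line 112, 20.3 and 16.7 for line 113, 12.6 and 12.0 for line 119, and 30.7 and 23.7 for line 73. A peak was called there in 8 of 8 libraries. The widest range among Nlrc5 regions with a mean of at least 5 CPM was 862 bp outside the gene (chr8:94528134-94528719), with line means of 4.73, 7.67, 9.52 and 15.6 CPM in lines 112, 113, 119 and 73. It was not separated with TMM (113 over 119 -0.30, SE 0.28, adjusted p = 0.359), but it was with start-site scaling, where that pair gave -1.09 with SE 0.27 (adjusted p = 4.997e-04).

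The sharpest contrasts were 3 weaker elements inside Nlrc5, named after their values were seen. The first (chr8:94455977-94456477) had 1.18 and 3.80 CPM for line 112, 0.461 and 0.491 for line 113, 0.518 and 0.339 for line 119, and 10.1 and 5.50 for line 73. The second (chr8:94516584-94517230) had 3.78 and 3.80, 2.07 and 2.21, 0.907 and 1.87, and 9.63 and 11.8 CPM in the same order. The third (chr8:94517548-94518135) had 1.18 and 2.53, 1.38 and 0.491, 0.778 and 0.509, and 10.1 and 10.7 CPM. In each, both libraries of line 73 were above the other 6, and no other library exceeded 3.80 CPM. Line 119 over 73 gave log2 fold changes of -4.08 (SE 0.52, adjusted p = 3.43e-09), -2.98 (SE 0.37, adjusted p = 1.48e-09) and -3.93 (SE 0.43, adjusted p = 7.43e-11). With start-site scaling these were -3.37, -2.26 and -3.22, and all 3 remained lower in lines 112, 113 and 119 than in line 73. Weak regions of the surrounding 10 Mb lay at -0.02 in line 73 on the log2 scale.

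**Figure D5:**
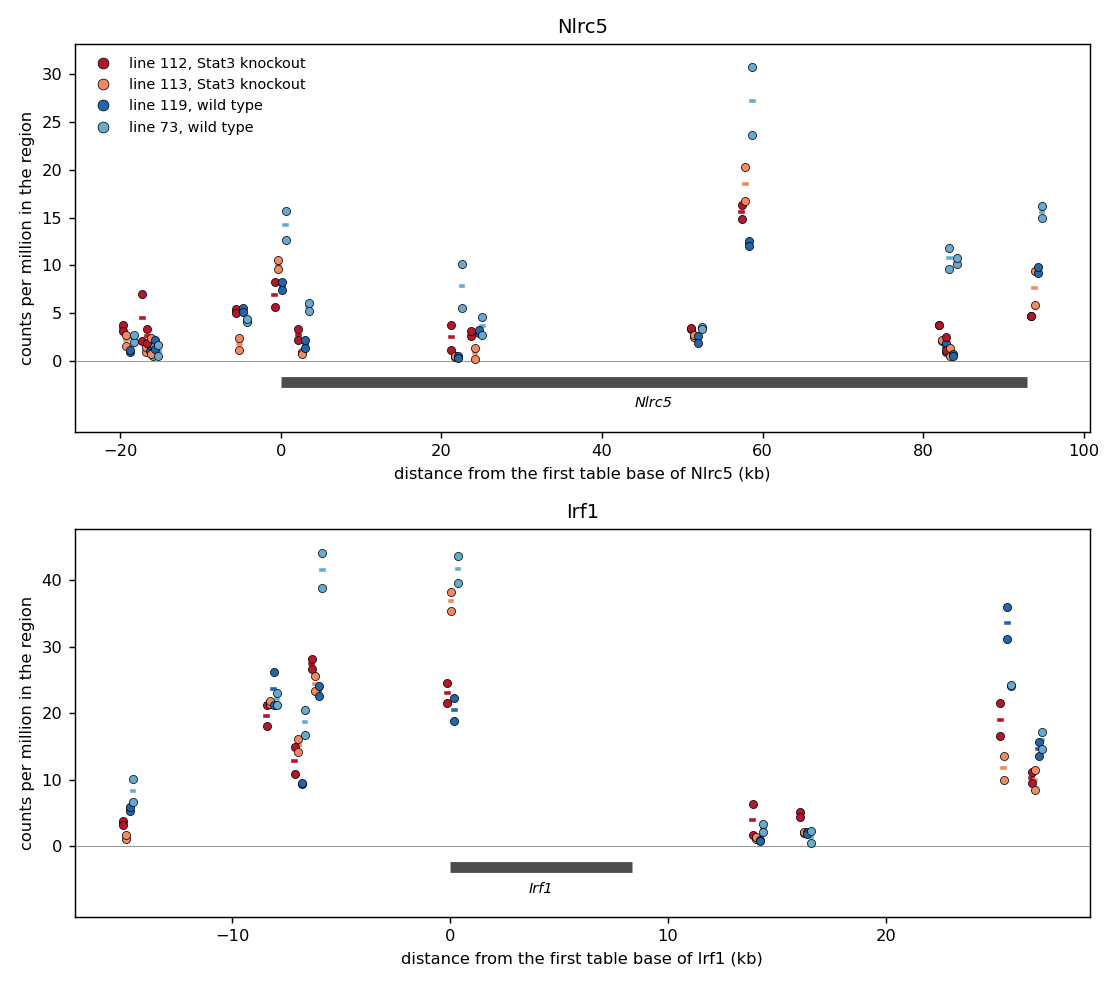
CPM in the regions of Nlrc5 (top) and Irf1 (bottom) against distance from the first table base of each gene, whose body is the bar. Points are libraries, set slightly apart by line, and short dashes are line means. With TMM, line 73 has the highest mean in all regions touching Nlrc5, and at Irf1 the element 16344 bp beyond the gene is highest in line 119.

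At Irf1, 4 regions lay upstream of the start and 4 beyond the other end. The strongest upstream region (chr11:53763559-53764273, 5741 bp outside) had 28.1 and 26.6 CPM for line 112, 23.3 and 25.5 for line 113, 22.6 and 24.1 for line 119, and 44.1 and 38.8 for line 73. Per length it reached 40.7 CPM per kb, above the 31.7 of the Irf1 start region. With TMM, unlike the start region, it was not higher in line 113 than in line 119 (log2 fold change 0.07, SE 0.19, adjusted p = 0.771). Line 119 over 73 was -0.83 with TMM (SE 0.18, adjusted p = 8.35e-05). With start-site scaling the start region was not higher in line 113 than in line 119 either (0.06, SE 0.14, adjusted p = 0.736, edgeR). That scaling moved the median of all regions for line 119 over 73 from -0.09 to 0.63, and its values at the upstream region are not given. The widest range of line means among Irf1 regions with a mean of at least 5 CPM was at another region (chr11:53794718-53796308, 16344 bp outside). It had 16.5 and 21.5 CPM for line 112, 9.91 and 13.5 for line 113, 31.1 and 35.9 for line 119, and 24.1 and 24.2 for line 73. All wild-type libraries were above all knockout libraries there, 28.8 ± 6.63 against 15.4 ± 5.17 CPM (n = 2 lines). The log2 fold change was -0.97 with SE 0.67 (adjusted p = 0.490), and it was not separated because line 112 over 73, at -0.36 with SE 0.22, did not pass (adjusted p = 0.168). A further region at 14502 bp upstream (chr11:53754945-53755512) also kept the genotypes apart with TMM, at 1.15 to 3.78 CPM in the knockout and 5.31 to 10.1 CPM in the wild-type libraries. Its adjusted p was 0.387 with lines as units and 0.0315 with libraries as units.

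The farthest Cd274 region (chr19:29354861-29356039, 6068 bp outside) had the widest range of the 3. It had 7.56 and 7.59 CPM for line 112, 6.92 and 6.63 for line 113, 7.13 and 7.12 for line 119, and 12.7 and 11.6 for line 73. Libraries of lines 112, 113 and 119 were nearly level and both of line 73 stood above them. The log2 fold changes against line 73 were -0.68 (SE 0.29, adjusted p = 0.0468), -0.84 (SE 0.29, adjusted p = 0.0123) and -0.77 (SE 0.27, adjusted p = 0.0123) for lines 112, 113 and 119. With start-site scaling lines 112 and 119 no longer passed, at -0.12 (SE 0.29, adjusted p = 0.743) and -0.04 (SE 0.26, adjusted p = 0.915), while line 113 over 73 was -0.90 (SE 0.29, adjusted p = 0.00663). With TMM all 3 Cd274 regions had their highest mean in line 73.

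Ciita had 6 regions, none within 1 kb of an end of its gene table entry, and all were weak, with means of 1.87 to 6.11 CPM. Its start sites were not examined. For those inside the gene at chr16:10510434-10511186, chr16:10521065-10521697 and chr16:10522655-10523273, the nearest end of a protein-coding gene was that of Dexi. The strongest contrast by genotype was inside the gene (chr16:10498873-10499373), with 2.83 and 4.11 CPM for line 112, 3.69 and 1.96 for line 113, 1.04 and 0.509 for line 119, and 0.507 and 0.275 for line 73. The wild-type values rest on 8, 3, 2 and 1 counts and the knockout values on 12, 13, 16 and 8. The log2 fold change was 2.25 with SE 0.88 (adjusted p = 0.219), and the region had a peak call in 1 library. It was no longer separated without library 1 of line 113, without library 2 of line 119, with start-site scaling or with DESeq2. The widest range among Ciita regions with a mean of at least 5 CPM lay 14213 bp outside (chr16:10464932-10465801), where lines 112, 113, 119 and 73 had 5.68, 6.76, 2.89 and 8.06 CPM and line 119 was below line 73 (log2 fold change -1.45, SE 0.33, adjusted p = 1.74e-04). With start-site scaling that difference was -0.73 with SE 0.34 and did not pass (adjusted p = 0.0642).

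The authors called a peak in all 8 libraries at 8 of the 42 regions (19.0%, against 8.19% of all regions), and in none of the libraries at 3 (7.14% against 12.2%). The 8 were the starts of B2m, Tap1 and Psmb9, and Irf1, the gene end of Nlrc5, the most accessible Nlrc5 element, 2 upstream Irf1 regions and the upstream Cd274 gene end. Libraries 1 and 2 of line 112 had a peak in 14 and 11 member regions, where 24.5% and 12.6% of all regions had a peak. For line 113 the numbers were 20 and 16, against 33.4% and 33.5%. Line 119 had 29 and 25, against 61.1% and 54.8%, and line 73 had 25 in both, against 36.1% and 35.7%.

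The wider pathway was read at the start or gene-end region of each gene. Among all start-site regions, 93.3% differed among lines, and 2.79% and 3.25% were separated, higher and lower in the knockout. Of 11 genes of class I heavy chains and peptide loading, 9 differed among lines and 0 were separated by genotype, with a median log2 fold change of -0.04. H2-K1, a classical heavy chain, had 11.3 to 22.4 CPM in the knockout and 13.999 to 19.0 in the wild-type libraries, and Tapbp, the tapasin that bridges class I to the transporter, had 31.6 to 52.3 and 28.1 to 62.6. The 3 immunoproteasome partners Psmb10, Psme1 and Psme2 all differed among lines and 0 were separated.

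Of 15 interferon pathway genes all 15 differed among lines, where 93.3% of all start-site regions did. Of these genes 1 was separated, where 2.79% and 3.25% of start-site regions were, higher and lower in the knockout. Irf8, an interferon regulatory factor best known in myeloid and B cells, had 21.0 and 22.5 CPM for line 112, 22.1 and 18.9 for line 113, 7.26 and 6.44 for line 119, and 6.59 and 5.23 for line 73. The groups did not overlap, at 21.1 ± 0.863 against 6.38 ± 0.666 CPM (n = 2 lines), with a log2 fold change of 1.67 and SE 0.77 (adjusted p = 0.282), and it remained separated with start-site scaling. The receptor chain Ifngr1 had 27.8 to 53.0 CPM in the knockout and 36.2 to 78.7 in the wild-type libraries.

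Of 13 genes of class II and its factors, 12 differed among lines and 0 were separated, where 93.3% of all start-site regions differed. Accessibility per region was low at H2-Aa, 0.509 to 4.11 CPM over all libraries, and higher at the general factor Rfx5, at 20.7 to 51.0 CPM. Of 10 checkpoint genes with a region, 9 differed among lines and 0 were separated, and Pdcd1lg2, which encodes PD-L2, had no region. Cd86, a costimulatory ligand, had 14.4 and 11.9 CPM in line 119 and 0.245 to 2.21 CPM in the other 6 libraries, a pattern of a single line. Lgals9, which encodes galectin-9, had 14.985 to 17.2 CPM in lines 113 and 73 and 3.07 to 6.33 CPM in lines 112 and 119. With start-site scaling the number that differed among lines was 4 of 11 for class I, 1 of 3 for the immunoproteasome, 6 of 15 for interferon, 9 of 13 for class II and 9 of 10 for the checkpoint genes, beside 3 of 7 for the members and the 64.1% of all start-site regions given above. The genotype test called 0 genes in each list.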

How the data were processed

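ATAC-seq counts for 148664 regions in 8 libraries and a peak list per library were used. The authors deposited whole-number counts, not normalized, for regions of 501 to 3708 bp. The deposited peak lists, 1 per library, hold each peak's score, its fold enrichment as a ratio, and −log10 of its p and of its q. They served here to find overlaps and to set a stricter limit. Bowtie2 2.2.4, Picard 1.118, MACS2 2.1.1.20160309, mm10 and GRCm38 are named in the submitters' processing notes, without their roles. Whether reads, fragments or shifted transposase cuts were counted, and how duplicates were treated, is not given in the sources used here, and counts may hold PCR duplicates. No genome sequence was used, so exons, introns and region sequences are not given. Gene positions and promoters were those of RefSeq on GRCm38.p6. Its gene table holds no strand, so a region at a gene end can lie at its start or its finish.

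filterByExpr (at least 10 counts, total of at least 15) removed weak regions and TMM scaled the libraries. For the genotype, the libraries of a line were added up and 2 lines were set against 2 with the two-sided quasi-likelihood test of edgeR 4.0.16 in R 4.3.3 (robust glmQLFit, then glmQLFTest). For pairs of lines, and for any difference among 4 lines, all 8 libraries entered 1 model that has a term for each line. Of the 42 member regions 42 entered the first fit and 39 the second. Adjusted p is Benjamini-Hochberg over all regions tested, with a threshold of 0.05. SE is the size of the log2 fold change divided by the square root of F. Ranges of line means were taken on the log2 CPM scale (prior count 2). Peak overlaps used bedtools 2.31.1 and at least 1 bp.

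The text names all 9 members, with a start or gene-end region where found, and all separated regions. It also names for each member the region with the widest range of line means, among those with a mean of at least 5 CPM. Other member regions are said to be chosen after their values were seen or are given to complete a member. The genes of the pathway lists that are given with values are examples, picked under no stated rule. The members and gene lists were chosen with earlier results of these data known. Alternatives were DESeq2 1.42.0, other scalings, filters, windows and peak limits, libraries as units, a replicate block and leaving out each library. A scaling that sets the median of start-site regions to 0 was added after the data were seen.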

Additional observations from a re-analysis of the deposited data

Results flagged for a closer look

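Member regions with a mean of at least 5 CPM were searched for a library far from the other 3 of its genotype, in 42 sets of 4 libraries. A gap of this size was found in 1 set. Chance alone marks about 1 in 20 sets of 4 independent values. Libraries of a line are not independent, so that rate need not hold for these sets. At the Irf1 region 7636 bp outside the gene (chr11:53761293-53762378), library 2 of line 112 had 18.03 CPM, while the other knockout libraries had 21.3, 21.4 and 21.8 CPM. That region carried a peak in all 8 libraries and did not pass the test of any difference among the 4 lines (adjusted p = 0.683, edgeR).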

How the results depend on the processing

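Of 300 values recomputed under alternatives, 263 kept their direction and their call or stayed within 1.5 times the count. Scaling to total counts gave 13 member regions for line 112 against 73 (20 with TMM), where 69594 of 134068 regions were called (70263 with TMM). A minimum of 50 counts on average, which leaves out most member regions, gave 8 member regions with any difference and 0 separated. Of all 24137 regions then tested, 20171 and 4282 were. The pairs had 3 for 112 against 119, 2 for 112 against 73, 5 for 113 against 119, 5 for 113 against 73, 4 for 112 against 113 and 7 for 119 against 73. Of all 24137 regions these pairs called, in this order, 11987, 13849, 14310, 14364, 7469 and 15172. Scaling to start sites, added after the data were seen, gave 9 for 112 against 73 and 14 for 119 against 73. Of all 134068 regions, 70851 and 74849 were then called in these pairs. Libraries as units called 4 member regions for genotype (26.0% of all regions). DESeq2 called 1 for genotype, 1 separated, 7 for 112 against 119, 11 for 112 against 73, 12 for 113 against 73, 3 for 112 against 113 and 11 for 119 against 73. Over all regions it called 6986 of 94078 for genotype, and 12182 of 134068 were separated. Of 134068 it called 37543 for 112 against 119, 47623 for 112 against 73, 55610 for 113 against 73 and 55497 for 119 against 73. For 112 against 113 it called 16362 of 89880. Keeping only the 26 regions inside a gene or within 1 kb gave 22 with any difference, 8 for 112 against 119 and 11 for 113 against 119. Peaks in all 8 libraries fell to 5 regions at a −log10 q of at least 5 and to 2 when at least 50% of the region had to be covered. Shares of all regions at these limits are not given. The Irf1 start region turned to 0.19 with a regional offset. The causes were not tested, except that a filter or a narrower window tests fewer regions.

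Leaving out each library in turn gave 0 to 0 member regions for genotype, 25 to 33 with any difference, 2 to 3 separated, 8 to 15 for 112 against 119, 11 to 22 for 112 against 73, 10 to 19 for 113 against 119, 12 to 22 for 113 against 73, 4 to 11 for 112 against 113 and 10 to 24 for 119 against 73, where a lone library is assumed to vary like the others. For genotype 633 of all 139607 regions were called without library 1 of line 112, and 0 without any other library. Shares of all regions are not set beside the counts among lines, where a line is left with a single library. Fewer of all regions were called in each pair of lines when a library of either line was left out. Peaks in every library kept ran from 8 to 10. The replicate numbers did not pair the libraries, as the differences between replicates correlated at -0.037 to 0.0047 between lines. With the replicate number as a block there were 33 member regions with any difference and 3 separated, where 114919 and 20733 of 134068 regions were. The pairs, in the order above, had 14, 19, 17, 20, 11 and 22. Of all 134068 regions they had 63965, 69520, 81044, 72277, 33279 and 79849. The log2 fold changes of the start regions ran, without each library in turn, from 0.04 to 0.25 at B2m, -0.30 to -0.19 at Tap1 and Psmb9, -0.44 to -0.23 at Tap2, -1.03 to -0.56 at Psmb8, -0.51 to -0.28 at Nlrc5, -0.14 to 0.00 at Irf1 and -0.68 to -0.29 at Cd274. Low counts limit the Ciita and weak Nlrc5 elements, where 3 counts are worth up to 0.949 CPM.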
